A study of Danio rerio with 48 samples.

Results

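The transcripts described here are those whose array signal was higher at every chromium concentration and lay near control under nickel and cobalt, in whole adult zebrafish exposed to each metal for 24 h. They were chosen from the measured values. The probes of each transcript were averaged, and the mean log2 intensity of each exposed group was set against the mean of the 4 control arrays labelled for its metal. A transcript was taken when that difference was at least 0.5 in all 3 chromium groups and under 0.35 in size in all nickel and cobalt groups, provided that at least 1 group mean reached a log2 intensity of 6.5. The rule kept 23 of the 21903 transcripts on the array, and they are called the members below, numbered from rank 1 to rank 23 by their mean chromium difference.

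The series has 48 one-colour arrays in 12 groups of 4, all from fish aged 6 to 9 months, with the whole body ground for RNA and the RNA pooled. Measured concentrations of the low, mid and high exposures were 56.5, 69.9 and 80.6 mg/L for chromium, 42.4, 51.0 and 64.0 mg/L for nickel, and 39.7, 46.3 and 59.5 mg/L for cobalt, each beside controls kept in water without added metal. The chromium-labelled and the nickel-labelled control arrays carried the same 4 pools of RNA, so each pool was hybridised on 2 arrays, and cobalt had 4 control arrays of its own. The labels give neither the number of fish per pool nor the tank behind each replicate, and the p-values accordingly speak of variation among pools and arrays, which may be technical. They give no strain, sex or chemical form of the metals either. In RNA from whole fish, fewer cells of a type and less RNA per cell cannot be told apart, and the concentrations differed between the metals, so that a like dose name is not a like dose.

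Chromium dissolved in its hexavalent form is an oxyanion that enters cells through anion transporters and is reduced inside them, which yields reactive species and chromium bound to DNA and protein. Trivalent chromium crosses membranes poorly. Nickel and cobalt are divalent cations known for displacing iron and other metals from enzymes, among them the hydroxylases that keep the hypoxia response in check, and the gill is a main site of contact with dissolved metals in fish.

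The probe names hold 22 Ensembl and 1 Vega transcript ID among the members, and nothing used here pairs them with genes: 0 of the 21903 IDs had a gene name. No role, tissue or pathway is therefore given to any member, no marker list could be read against the whole-body label, and a few members are named by ID. Array medians lay between 5.62 and 5.66 on the log2 scale, arrays of a group correlated between 0.988 and 0.996 across transcripts, and 0 columns were identical. Spike-in spots on the arrays averaged between 10.73 and 10.96 by group on the nickel and chromium arrays and between 8.45 and 8.69 on the cobalt arrays, and the part of this gap in the values compared across metals was not tested.

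Most transcripts that were at least 0.5 above control at all chromium doses were at least 0.35 above control in some nickel or cobalt group. Of the 9416 transcripts that reached the intensity floor, 534 had a chromium difference of at least 0.5 at all 3 doses, and the 23 members were 4.31% of them. Of the 534, 435, or 81.5%, had a difference of at least 0.35 in a nickel group, 461, or 86.3%, in a cobalt group, and 395, or 74%, in both. Apart from these 395, 40 reached 0.35 under nickel and not cobalt and 66 under cobalt and not nickel. Another count, which overlaps the others, is of 30 that lay at or below -0.35 in some nickel or cobalt group. A limit of 0.35 in any 1 group is looser than 0.5 in all 3 chromium groups, and the shares among the 9416 were not taken. Chromium and nickel differences also rest on control arrays of the same pools. The median differences of the 534 were 0.71, 0.78 and 0.96 at low, mid and high chromium. In the members they were 0.62, 0.60 and 0.70, so the members lay lower within this set than its middle.

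On the linear scale the members' medians correspond to 1.54-fold, 1.52-fold and 1.62-fold above control at low, mid and high chromium. On the log2 scale single members spanned 0.50 to 1.48 at low chromium, 0.50 to 1.87 at mid and 0.52 to 1.83 at high. Under nickel the members' medians were 0.10, 0.11 and 0.10 at the 3 doses, and under cobalt -0.07, 0.02 and 0.11. Over all 21903 transcripts the medians were 0.02, 0.02 and 0.01 under chromium. All of these differences went into the choice of the members and are given as a description. Because 2 members stood well above the others, the mean is a poor summary and medians are used.

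**Figure D1:**
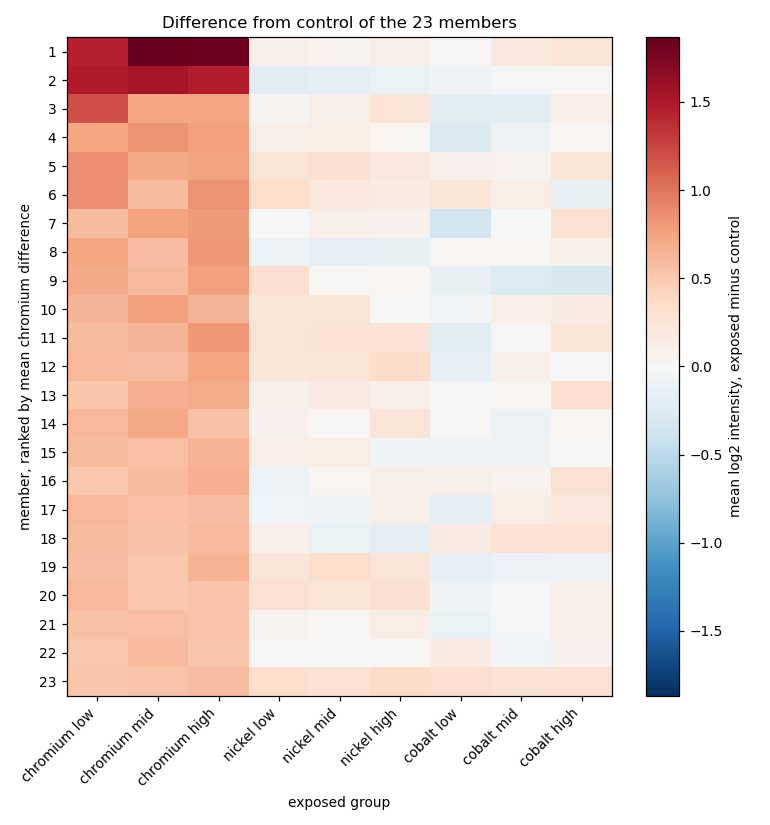
Difference of mean log2 intensity between each exposed group and its metal's control arrays (columns, 9 groups of 4 arrays) for the 23 members (rows, ranked by mean chromium difference); red is higher and blue is lower than control. The 3 chromium columns are red for every member by the choice of members, and ranks 1 and 2 stand apart from the rest, which lie between 0.50 and 1.205.

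The first member by size was ENSDART00000087803. Its log2 intensity on the chromium-labelled control arrays was 5.55, 5.30, 5.35 and 5.36. At low chromium the 4 arrays read 6.89, 7.78, 6.37 and 6.33, at mid 6.47, 8.27, 6.55 and 7.74, and at high 7.56, 6.52, 6.72 and 8.10. Every exposed array was above every control array, and each dose held arrays both near 6.5 and well above 7.5. The group means were 5.39 ± 0.11 in controls and 6.84 ± 0.68, 7.26 ± 0.89 and 7.22 ± 0.74 at low, mid and high (SD, n = 4 each), with differences of 1.45, 1.87 and 1.83, each ± 0.43 (SE). On the nickel and cobalt arrays, controls included, single values lay between 4.96 and 5.79. This transcript had the largest replicate SD of all members at the mid and high doses, where the members' median SD was 0.17 and 0.18. Without the highest array of each dose, its difference fell to 1.14 at low, 1.53 at mid and 1.54 at high.

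ENSDART00000103511, rank 2, had nearly the same size of difference with much closer replicates. Its 4 control arrays read 5.34, 5.15, 5.49 and 5.36. The low dose gave 6.97, 6.74, 6.71 and 6.86, the mid dose 7.07, 7.22, 6.70 and 6.54, and the high dose 6.75, 6.78, 6.57 and 7.12. Every exposed array exceeded every control array by over 1 unit of log2, and the 3 doses overlapped fully. The means were 5.34 ± 0.14 in controls, 6.82 ± 0.12 at low, 6.88 ± 0.32 at mid and 6.80 ± 0.23 at high (SD, n = 4 each), with differences of 1.48, 1.55 and 1.47, each ± 0.14 (SE). On the nickel and cobalt arrays its values lay between 5.02 and 5.78.

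Both of these transcripts were dim without chromium. A log2 intensity of 5 was used as a background limit, since 98.7% of the values of control spots that should be dark lay at or below it. One probe of rank 1 lay at or below it on 2 of the 4 chromium-labelled control arrays and on 10 of all 48, and one probe of rank 2 on 1 of the 4 control arrays. No group lay at or below it on all of its arrays for any of these probes. In all, 5 members, ranks 1, 2, 3, 5 and 16, reached the intensity floor of 6.5 in chromium-exposed groups and in no other group, so they could enter the set only by being higher there. The other 18 reached it in a control, nickel or cobalt group as well. Mean levels of the members on the chromium-labelled control arrays spanned 5.34 to 13.12, with a median of 7.77: 7 lay under 6.5, 11 between 6.5 and 9, and 5 above 9. These levels are probe brightness and are not ordered between transcripts.

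In OTTDART00000013540, rank 3, a single array set the size at the low dose. Its control arrays read 6.16, 5.56, 5.94 and 5.97, and its low-dose arrays 8.76, 6.52, 6.66 and 6.51. The mid-dose arrays read 6.43, 6.62, 6.81 and 6.75, and the high-dose arrays 6.77, 6.52, 6.48 and 6.84. All 12 exposed arrays were above the controls, and 1 low-dose array stood far above the other exposed arrays, the highest of which read 6.84. The difference at low chromium was 1.205 with that array and 0.66 without it, beside 0.74 at both mid and high. Its 2 probes differed as well: at the low dose the first gave 0.52 and the second 1.89.

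**Figure D2:**
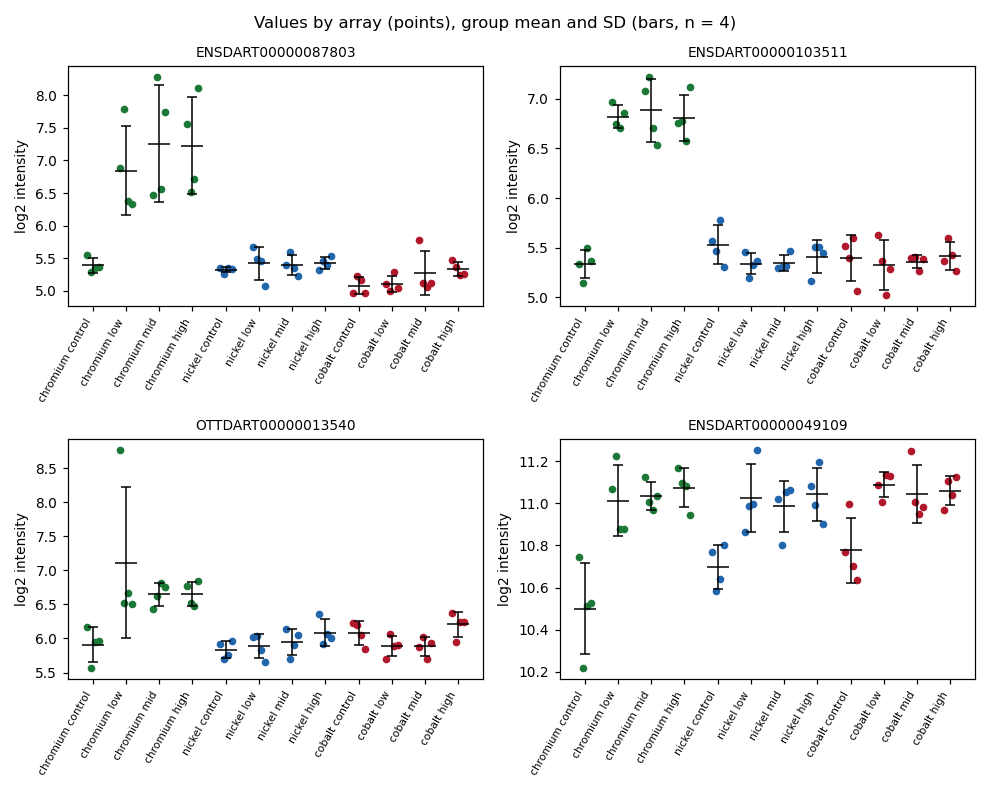
Log2 intensity on each of the 48 arrays (points) with the group mean and SD (bars, n = 4) for 4 members, in chromium (green), nickel (blue) and cobalt (red) groups; the vertical scales differ between panels and do not start at 0. The top panels, ranks 1 and 2, show chromium-exposed arrays above all others, the lower left panel, rank 3, shows the single low-dose array at 8.76, and the lower right panel, rank 23, shows nickel-exposed and cobalt-exposed arrays at the level of the chromium-exposed ones.

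ENSDART00000056286, rank 7, was the member with the brightest probes. Its chromium-labelled controls read 12.95, 13.12, 13.32 and 13.07. The low dose read 13.44, 13.90, 13.82 and 13.66, the mid dose 14.07, 13.91, 13.70 and 13.79, and the high dose 14.00, 13.95, 13.74 and 13.96. No exposed array overlapped these controls, and the differences were 0.59, 0.75 and 0.80, each ± 0.11 (SE). The cobalt control arrays, at 13.58, 13.88, 13.37 and 13.55, overlapped the chromium-exposed arrays. Under cobalt its mean went from 0.34 below control at low, to 0.00 at mid, to 0.29 above at high.

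ENSDART00000026017, rank 4, was one of 3 members, with ranks 1 and 2, whose chromium difference was called larger than the nickel and the cobalt difference at all 3 doses in a limma fit of all 48 arrays, where the rule itself makes it larger in every member. Its chromium-labelled controls read 9.46, 9.26, 9.68 and 9.55. The exposed arrays read 9.99, 10.21, 10.35 and 10.34 at low, 10.21, 10.35, 10.70 and 10.08 at mid, and 10.44, 10.23, 9.85 and 10.50 at high. They lay above all 4 chromium-labelled controls and overlapped the cobalt controls, which read 10.07, 9.84, 9.84 and 9.80. Differences were 0.73, 0.84 and 0.77, each ± 0.15 (SE), under chromium, 0.12, 0.14 and 0.04 under nickel, and -0.27, -0.09 and 0.04 under cobalt.

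The other 18 members had differences between 0.50 and 0.86 at every chromium dose. In the limma fit of the 16 chromium arrays, with Benjamini-Hochberg adjustment over all transcripts, 21 of the 23 were called higher at low chromium, 21 at mid and 22 at high, at an adjusted p threshold of 0.05. Among all transcripts 8.3%, 9% and 12.2% were called higher in those comparisons. The members were taken for being higher there, so nothing is read from these counts beyond where single members failed: 20 were called at all 3 doses, rank 22 at 2 doses, and ranks 3 and 15 at 1 dose. Rank 15 was called at high and rank 3 at low, with an SE of 0.37 at every dose for rank 3. Without the low-dose array of rank 3 that stood far above the others, its SE at high was 0.12 and it was called there. Dose by dose, the 4 exposed arrays lay above the 4 chromium-labelled controls in 22 members at low, 21 at mid and 21 at high, beside 10.9%, 10.1% and 12.7% of transcripts. All 12 chromium-exposed arrays lay above all 4 chromium-labelled controls in 20 members, as in 5.58% of all transcripts, and the exceptions were ranks 9, 15 and 22. Against the 8 arrays of the shared pools this held in 17 members, beside 3.95% of transcripts, and against all the other 36 arrays in 6 members, ranks 1, 2, 3, 18, 19 and 21, beside 0.0822% of transcripts. The rule favours such separation, so these counts of arrays without overlap are a description as well. Of these 6, ranks 1, 2 and 3 reached the intensity floor only in chromium-exposed groups.

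The rule set no limit on the differences between chromium doses, although both doses of each such difference had to reach 0.5 against the same controls, so these values are not independent of the choice and are a description. The members' median difference between high and low chromium was 0.03, and that of all transcripts -0.00. It ranged from -0.46 in rank 3 to 0.38 in rank 1. In the limma fit 0 of 23 members were called between high and low, where 0.228% of all transcripts were called higher and 0.279% lower. Likewise 0 were called between mid and low, where 0% of transcripts were called in either direction, and 0 between high and mid, where 0.073% were higher and 0.0502% lower. At an unadjusted p under 0.05, 2 members were higher at high than at low, ranks 11 and 16, 1 was higher at high than at mid, and 0 differed between mid and low. No share of all transcripts was taken at that p. The 95% interval of high minus low held 0 in 21 members. Ranks 3 and 1, whose replicates spread most, had the widest intervals, which reached down to -1.26 and up to 1.30, and those of the other 21 stayed between -0.42 and 0.49. The largest of the 3 differences from control fell at the high dose in 11 members, at mid in 7 and at low in 5.

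Under the other metals the same contrast gave 1 call. ENSDART00000066009, rank 11, was higher at high than at low cobalt by 0.44 ± 0.09 (SE), limma adjusted p 0.036, beside 0.425% of transcripts called higher and 0.438% lower. Its cobalt arrays read 8.37, 8.53, 8.41 and 8.30 at low and 8.60, 8.95, 8.94 and 8.88 at high, without overlap. The cobalt controls, at 8.58, 8.62, 8.55 and 8.71, lay above the low-dose arrays and overlapped the high-dose ones. Between high and low chromium its difference was 0.22 ± 0.08 (SE), adjusted p 0.27, and whether the cobalt and chromium values differ was not tested. Between high and low nickel 0 members were called, beside 0% of transcripts. At an unadjusted p under 0.05, 6 members were higher and 1 was lower at high than at low cobalt. Between high and low nickel 2 were higher and 0 lower at that p. These counts are a description, and the share of all transcripts at that p was not taken.

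**Figure D3:**
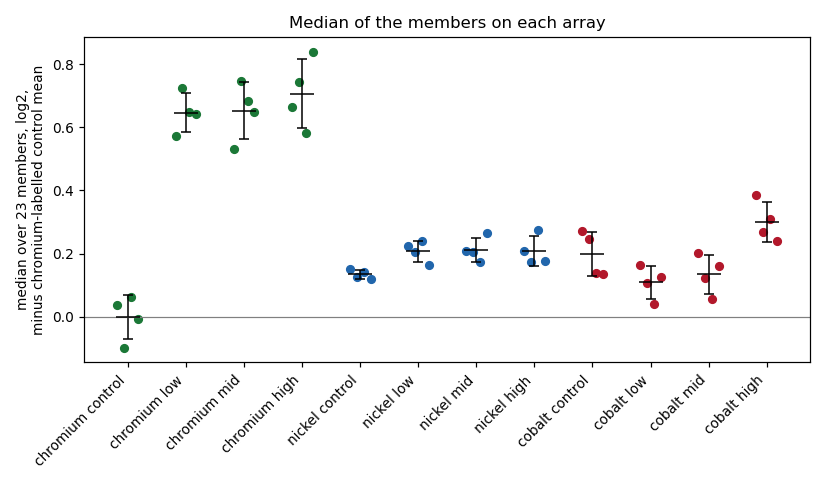
Median over the 23 members of the log2 intensity on each array minus the member's mean on the chromium-labelled controls (points, 48 arrays), with group means and SDs (bars, n = 4), for chromium (green), nickel (blue) and cobalt (red). The chromium-exposed arrays lie between 0.53 and 0.84 with the 3 doses overlapping, and the other 36 arrays between -0.10 and 0.39, with the nickel-labelled and cobalt controls above the chromium-labelled ones.

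By array, the median over members is a description of values the rule used and does not show that single members move together. This median, relative to the chromium-labelled control mean, was 0.65 ± 0.06 at low chromium, 0.65 ± 0.09 at mid and 0.71 ± 0.11 at high (SD, n = 4 each). The high dose spread the most, from 0.58 on replicate 3 to 0.84 on replicate 4. On replicate 3 only 3 of 23 members, or 13%, lay above their group mean, and on replicate 4 19 did, while among all transcripts at the intensity floor 51.5% and 51% did. Without replicate 3 the members' median at the high dose was 0.75 and all 23 reached 0.5, and without replicate 4 it was 0.66 and 19 did.

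The label of the set, a change under chromium and not under the other metals, holds as a limit on size and not as an absence of change. The lowest and highest nickel or cobalt difference among the members were -0.34 and 0.35. In the limma fits of the nickel arrays 3 members were called higher at low, 2 at mid and 4 at high, where 7.1%, 6.09% and 8.09% of all transcripts were, and in those of the cobalt arrays 1 at each dose, where 5.25%, 6.25% and 9.51% were. No member was called lower in any of these 6 comparisons. Among all transcripts 6.51%, 4.99% and 6.82% were called lower under nickel and 4.4%, 5.71% and 9.41% under cobalt. The members called were ranks 11, 12, 19, 20 and 23. At an unadjusted p under 0.05, 6, 6 and 7 members were higher at low, mid and high nickel. Under cobalt 1, 2 and 5 were. At that p 2 were lower at low cobalt and 0 in the other 5. The share of all transcripts at that p was not taken. With the arrays scaled to the spike-in spots instead, 4 of the 23 still met the limits, and the members' medians were 0.31 at mid and 0.31 at high nickel and 0.36 at high cobalt, beside medians of 0.20, 0.20 and 0.25 for all transcripts. The 95% interval of the nickel difference reached 0.5 at some dose in 8 members and that of the cobalt difference in 7, and 9 members had neither.

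ENSDART00000049109, rank 23, was called higher under all 3 metals. Its chromium-labelled controls read 10.74, 10.22, 10.51 and 10.53, and its high chromium arrays 11.17, 11.10, 11.08 and 10.94. The nickel-labelled controls read 10.77, 10.58, 10.64 and 10.80 and the high nickel arrays 11.08, 10.99, 11.20 and 10.90. The cobalt controls read 10.77, 10.99, 10.70 and 10.64 and the low cobalt arrays 11.09, 11.00, 11.14 and 11.13. In each of these 3 pairs the exposed arrays lay above all 4 of their controls. Mean differences were 0.51, 0.53 and 0.57 under chromium, 0.33, 0.29 and 0.35 under nickel, and 0.31, 0.27 and 0.28 under cobalt, with SEs of 0.10, 0.09 and 0.08 for the 3 metals. It passed the limma threshold at low and high nickel and at all 3 cobalt doses. In the fit of all 48 arrays its chromium difference was not called larger than its nickel or cobalt difference at any dose.

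ENSDART00000066009, rank 11, was the member called at all 3 nickel doses. Its nickel-labelled controls read 8.61, 8.68, 8.63 and 8.77, and its nickel-exposed arrays lay between 8.84 and 9.15, all above them. The differences of 0.26, 0.27 and 0.27, each ± 0.07 (SE), did not vary with nickel dose by more than their error. Under chromium they were 0.59, 0.63 and 0.82, each ± 0.08 (SE). Ranks 12, 19 and 20 had nickel differences between 0.22 and 0.34 and were called at 1, 1 and 2 nickel doses. Their cobalt differences lay between -0.16 and 0.11 and were not called.

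How far the chromium difference exceeded those of the other metals was estimated in 1 fit of all 48 arrays. Against nickel, the chromium difference was called larger in 8 members at low, 9 at mid and 11 at high, beside 1.05%, 0.931% and 1.29% of all transcripts. With a random block for the shared pools these counts were 13, 13 and 15, beside 2.44%, 1.92% and 2.58%. Against cobalt it was called larger in 17, 14 and 10 members, beside 3.66%, 2.96% and 2.67%. The choice of members set these differences, and they are given to show where they were not called. In the fit without the pool block, 12 of the 23 members were called larger than both metals at no dose, and 6 with it. A member without a call need not have a small difference. In the fit without the pool block, rank 3 exceeded nickel at the low dose by 1.15 ± 0.35 (SE) and was not called. Rank 4 exceeded it by 0.62 ± 0.17 (SE) and was called. Ranks 1, 2 and 4 were called larger than both at all 3 doses in both fits.

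Each member had 2 probes, and the rule used their average, so the spread between them is a check on the average. Both probes lay above 0 at every chromium dose in all 23 members. Both reached 0.5 at every dose in 12, and both met every limit of the rule, nickel and cobalt included, in 9. In rank 13 the first probe gave 0.25 at low chromium and 0.28 at low nickel. In rank 5 the first probe gave 0.48, 0.51 and 0.39 at low, mid and high nickel. The gap between the 2 probes' mean chromium differences had a median of 0.08 and was largest in rank 1, at 0.59. Tested one by one over all probes, both probes were called higher in 17 members at low chromium, 15 at mid and 18 at high, and neither in 2, 1 and 0 members. The rule chose the members on the average of these probe values, so the counts are a description. The share over all transcripts was not taken. Of the members' 46 probes 0 carried an x or y in their suffix, which 17.2% of all probes on the array did. No source used here explains that suffix.

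**Figure D4:**
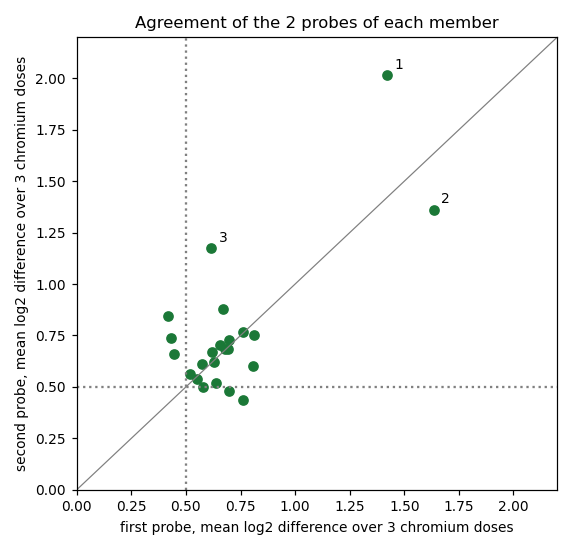
Mean log2 difference from control over the 3 chromium doses for the first probe (horizontal axis) and the second probe (vertical axis) of each of the 23 members (points), with the line of equality and dotted lines at 0.5. All points lie above 0 on both axes, most lie near the line, and ranks 1, 3 and 13 have a second probe well above the first.

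The chromium-labelled controls lay lower than the nickel-labelled ones for most of these transcripts. The chromium-labelled and nickel-labelled control arrays held the same pools, and their mean difference, chromium-labelled minus nickel-labelled, had a median of -0.16 in the members, with 16 of 23 below 0, or 69.6%. Over all transcripts the median was -0.01, with 53.2% below 0, and in the 534 transcripts higher at all chromium doses it was -0.02. In a limma fit of the 8 arrays 0 members were called, beside 0.0822% of transcripts lower and 0.457% higher, and 4 members were lower at an unadjusted p under 0.05. No share of all transcripts was taken at that p. With the pool as a block 2 members were called lower, ranks 13 and 14, beside 1.55% of transcripts lower and 2.75% higher. The chromium-labelled arrays are the rule's reference for chromium, so a low value on them raises the chromium difference by construction. In the same way, a high value on the nickel-labelled arrays lowers the nickel difference. Both sets thus entered the choice of members.

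Against other controls the members' chromium differences were smaller. Set against the nickel-labelled arrays of the same pools, their medians were 0.52, 0.50 and 0.56 at low, mid and high chromium, and 13, 11 and 16 of 23 reached 0.5, with all 23 above 0. Set against the average of both arrays of each pool, the medians were 0.56, 0.55 and 0.66, and 17, 15 and 19 reached 0.5. Set against the cobalt controls, which are labelled apart from the shared pools, they were 0.44, 0.44 and 0.46, and 9, 11 and 11 reached 0.5, with 21 of 23 above 0 at each dose. Ranks 1 and 2 remained the largest at high chromium against all 3 references, at 1.83, 1.90 and 2.14 for rank 1 and 1.47, 1.27 and 1.41 for rank 2 against chromium-labelled, nickel-labelled and cobalt controls.

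**Figure D5:**
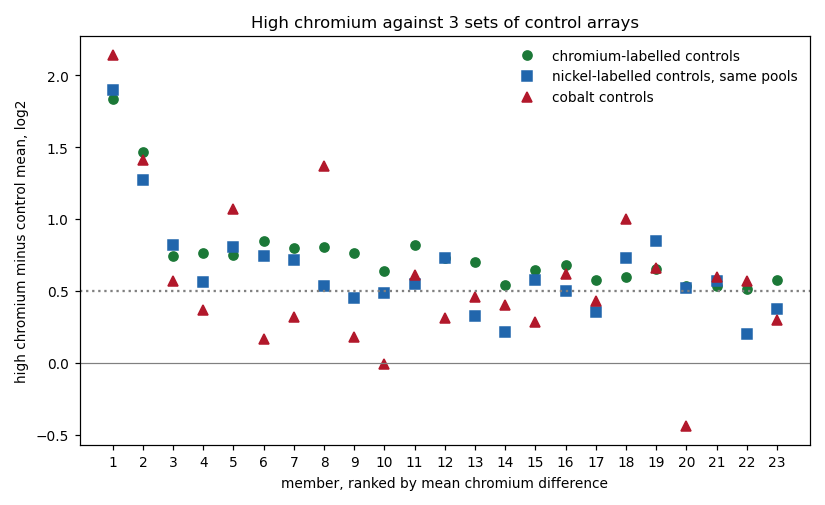
Mean log2 intensity at high chromium minus the mean of 3 sets of control arrays for each of the 23 members, ranked by mean chromium difference: chromium-labelled controls (circles), nickel-labelled controls of the same pools (squares) and cobalt controls (triangles), with a dotted line at 0.5. All circles lie above the line by the rule, 16 squares and 11 triangles reach it, and ranks 1 and 2 stand highest by the circles.

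The limits of the rule divided transcripts that hardly differed. The 5 members just inside 0.5 had lowest chromium differences between 0.503 and 0.512, and the 5 transcripts just outside that met every other criterion had 0.484 to 0.496. In all, 37 transcripts outside met every other criterion with a lowest chromium difference between 0.4 and 0.5. At the limit of 0.35, the 5 members just inside had a largest nickel or cobalt difference between 0.328 and 0.346, and the 5 transcripts just outside 0.35 to 0.377. Rank 23 stood next to both limits, at 0.512 and 0.346.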

How the data were processed

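RNA from pools of whole adult fish was labelled with Cy3 and hybridised to one-colour arrays, per the labels' protocols. The values deposited by the authors are log2 intensities, read from their range, for 43714 probes and 61 control rows, which were left out. No source used here names the scanner, the background correction or the normalization. Array medians were nearly equal, so no further normalization was applied.

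Probes were averaged per transcript, the ID without its suffix, and groups came from the sample labels. R 4.3.3 with limma 3.58.1 (lmFit, eBayes) was run on the 16 arrays of each metal, on the 8 shared-pool control arrays and on all 48 arrays, with Benjamini-Hochberg adjustment over 21903 transcripts and a threshold of 0.05. The number of arrays limits the precision. Same-numbered chromium arrays correlated between -0.168 and 0.246 in their deviations from group means. The ranges were -0.160 to 0.223 for nickel and -0.130 to 0.278 for cobalt, and the numbers were not used as pairs. The replicate number as a block was tried for chromium only. The titles pair the shared-pool arrays, whose correlations were 0.664, 0.587, 0.627 and 0.728.

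The members, lists and comparisons were chosen with earlier results of these data known. The naming rule covers the 12 largest members, the 5 brightest, those next to the 0.5 limit and those called between doses. Because no ID had a gene name, IDs are printed for 7 of these, chosen after their values were seen, and the lists of pathway and tissue marker genes could not be read. The fits were tested on simulated data with known changes. In a single draw, 68.7% of 1.5-fold changes were called between high chromium and control and 65.7% between high and low. False calls were 17 of 193 and 11 of 183 in these comparisons, and they depend on the draw. Alternatives covered normalization, probe summary, control arrays, limits, blocks, fit options and left-out replicates. The cobalt controls as reference, the comparison between metals with and without the pool as a random block, and the dose contrasts of nickel and cobalt were added after seeing the data.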

Additional observations from a re-analysis of the deposited data

Results flagged for a closer look

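Single arrays stood apart from the other 3 of their group in 6 of 96 groups of 4 examined over the 7 named members and the members' array medians, where chance gives about 1 in 20. At low chromium, OTTDART00000013540 read 8.76 on replicate 1 against 6.51 to 6.66 on the others. For ENSDART00000087803, replicate 1 of mid cobalt read 5.79 against 5.07 to 5.12. For ENSDART00000103511, replicate 3 of mid cobalt read 5.26 against 5.38 to 5.41, and replicate 4 of mid nickel 5.47 against 5.30 to 5.31. For ENSDART00000026017, replicate 1 of the cobalt controls read 10.07 against 9.80 to 9.84. For ENSDART00000049109, replicate 2 of mid nickel read 10.80 against 11.02 to 11.06.

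At the high dose, the chromium difference was larger than that of nickel and cobalt in all 7 named members, as the choice of members asks, and in 5 of them it was called larger than at least 1 of these in the limma fit of all 48 arrays. The values are a description. For ENSDART00000087803 it was larger by 1.73 than under nickel and by 1.58 than under cobalt, each ± 0.40 (SE). For ENSDART00000103511 the gaps were 1.59 and 1.45, each ± 0.18 (SE). For ENSDART00000026017 the gap to nickel was 0.72 and that to cobalt 0.72, each ± 0.17 (SE). For ENSDART00000066009 they were 0.55 and 0.59, each ± 0.11 (SE). For ENSDART00000056286 the gap to nickel was 0.71 ± 0.21 (SE), and that to cobalt was not called.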

How the results depend on the processing

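Which transcripts are members depended on the reference and the limits. The count was 5 with scaling to spike-in spots, 4 of them among the 23, 9 when every probe had to meet the rule, and 85 with the nickel-labelled controls as chromium reference, 10 of them shared. It was 8 with a nickel and cobalt limit of 0.25 and 39 with 0.45. Averaging the shared pools gave 26, with 12 shared, and the probe with the highest mean gave 34, with 14 shared. Leaving out 1 array at a time gave 19 to 29, and without replicate 2 of the chromium-labelled controls 16 of the 23 stayed among 25.

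Spike-in scaling moved the members' median at high chromium from 0.70 to 0.85 and that of all transcripts from 0.01 to 0.16. It moved the members' medians under mid and high nickel to 0.31 and 0.31 and under high cobalt to 0.36. The scaling subtracts a single value per array from every transcript, so members and other transcripts shifted by the same amount. The nickel-labelled controls gave chromium medians of 0.52, 0.50 and 0.56 and the cobalt controls 0.44, 0.44 and 0.46, with 12 members called at low chromium against the cobalt controls. Why the spike-in spots and the control sets differed was not tested. The pool as a block gave 2 calls between the control sets in place of 0, and as a random block 13 members above nickel at the low dose in place of 8, with 6 in place of 12 members called larger than both metals at no dose. The replicate number as a block gave 21, 21 and 21 members called at low, mid and high chromium. For the counts with the replicate number as a block, and for the 12 against the cobalt controls, the share of all transcripts called was not taken. Nor was a share taken for the members called larger than both metals at no dose.

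Leaving out single replicates gave 18 to 23, 18 to 22 and 19 to 23 members called at low, mid and high chromium, with medians of 0.58 to 0.67, 0.60 to 0.69 and 0.65 to 0.75. The share of all transcripts called was not taken for these fits either. The count called between high and low chromium was 0 under every alternative run, with a median of -0.02 to 0.07 over left-out replicates. OTTDART00000013540 passed the limma threshold at high chromium without replicate 1 of the low dose (adjusted p 0.000492), and also with spike-in scaling or its brightest probe (adjusted p 0.00105 and 0.00855), and ENSDART00000026017 and ENSDART00000056286 did not against the cobalt controls (adjusted p 0.0721 and 0.0524). Probes of ranks 1 and 2 lay at or below the background limit of 5 on some arrays, none of them chromium-exposed. What this did to their differences was not tested.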
